A study of Arabidopsis thaliana with 12 samples.

Results

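Leaf transcripts of the Arabidopsis thaliana mutant ptpkis2 were compared with those of wild type at the end of the night, across all genes measured on the Affymetrix ATH1 array. The members were chosen by the array titles. They comprise 3 arrays of ptpkis2 and 3 of wild type, which is 6 of the 12 arrays in the series. The other 6 arrays, 3 of sex4-3 and 3 of sex1-3, entered the same statistical fit and are given beside ptpkis2 where they show how far it stood from its relatives. The ptpkis2 plants were the insertion line Salk_053285, the sex4-3 plants the insertion line Salk_102567, the sex1-3 plants carried an induced mutation in Col-0, and the wild type was Col0. Each mutant is 1 line, and no complemented or second ptpkis2 allele is among these arrays. All genotypes grew under 12 hours of light a day at 100 micromol m-2 s-1, 20 degrees Celsius and at least 75% relative humidity. Leaves were at developmental stage 3.70, came from 8 plants of each genotype with 3 leaves taken, and were frozen in darkness 0.5 hours ahead of the day. The labels do not say whether the 3 arrays of a genotype stand for separate pools of plants, so every p-value here measures only the spread between arrays, which may be technical.

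Leaves store part of the day's photosynthate as starch in the chloroplast and break it down at night to feed sucrose synthesis, respiration and growth. The glucan surface is opened by phosphorylation through glucan, water dikinase (SEX1) and phosphoglucan, water dikinase (PWD), and is then dephosphorylated by the phosphatase SEX4 so that beta-amylases can proceed. PTPKIS2 is the protein better known as LSF1, a name for its likeness to SEX4, a relative of SEX4 that binds starch and is needed for normal starch breakdown at night. When carbon runs short before dawn, the kinase SnRK1 and its targets shift the leaf from growth to the use of protein and lipid, and transcripts that sugars repress become abundant. The comparison therefore asked how the transcriptome of a leaf with slow starch breakdown differs from that of wild type at the time of night when reserves are lowest.

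Arrays of 11 of the 12 samples resembled one another, and wild type replicate 2 stood apart. Its log2 signals correlated with those of the other arrays at r = 0.595 to 0.622 over the probe sets tested, whereas the other 11 arrays correlated among themselves at 0.892 to 0.972. Its median signal was 62.2, against 29.3 to 29.7 on the ptpkis2 arrays and 24 to 28 on the remaining arrays, and chloroplast-encoded transcripts made up 8.83% of its signal, against 2.58 to 4.09% elsewhere. Each result is therefore given with all 12 arrays and without wild type replicate 2. The transcripts of LSF1, SEX4 and SEX1 had no probe set named for them in the annotation used here, so the genotype labels were not checked by the mutated genes. Of 11 leaf mesophyll markers only RCA, rubisco activase, was named, with signals of 8120 to 10091 in ptpkis2 and 5870 to 12698 in wild type, and none of the 5 root or 5 flower and pollen markers was named. The trichome gene TRY had signals of 87.8 to 109 in ptpkis2 and 105 to 542 in wild type (105 to 118 without replicate 2). The guard cell lineage gene FMA had 43.4 to 48.5 in ptpkis2 and 6.03 to 56.2 in wild type (50.1 to 56.2 without replicate 2). Neither passed without replicate 2 (TRY -0.16, limma adjusted p = 0.791, and FMA -0.22, adjusted p = 0.736). The phloem companion cell gene AT1G64370 had 310 to 494 in ptpkis2 and 192 to 529 in wild type, and did not pass either (0.11, adjusted p = 0.912). The part of such cell types in the results was not tested. In whole leaves, fewer cells of one type and less RNA per cell cannot be told apart.

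In ptpkis2 more transcripts were called lower than higher with all 12 arrays and without wild type replicate 2, among them a small set with large falls and groups that did not overlap. A probe set was called where limma's moderated test gave an adjusted p below 0.05 (Benjamini-Hochberg over 13647 probe sets). With all 12 arrays, 36 probe sets were called in ptpkis2 against wild type, of which 26 were lower (0.191% of those tested) and 10 higher (0.0733%). Without wild type replicate 2 the count was 369, with 255 lower (1.87%) and 114 higher (0.835%), and it included all 36. Other settings split the calls more evenly, with 77 lower and 74 higher where wild type replicates 2 and 3 were both left out, and 421 lower and 378 higher where all 12 arrays were weighted by their quality. With wild type replicate 2 kept, median centring left 1 call, which was higher, and fitting ptpkis2 and wild type alone left 0. The median standard error of a log2 fold change was 0.35 with 12 arrays and 0.23 without wild type replicate 2. Of the 369 probe sets, 28 had a value of the opposite sign with all 12 arrays and 1 was not tested there. Beyond 2-fold lay 116 of the falls and 52 of the rises without that array. The median over all probe sets was 0.05 with 12 arrays and 0.03 without wild type replicate 2, and 53.6% and 53.4% of them lay above 0 in that order.

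**Figure D1:**
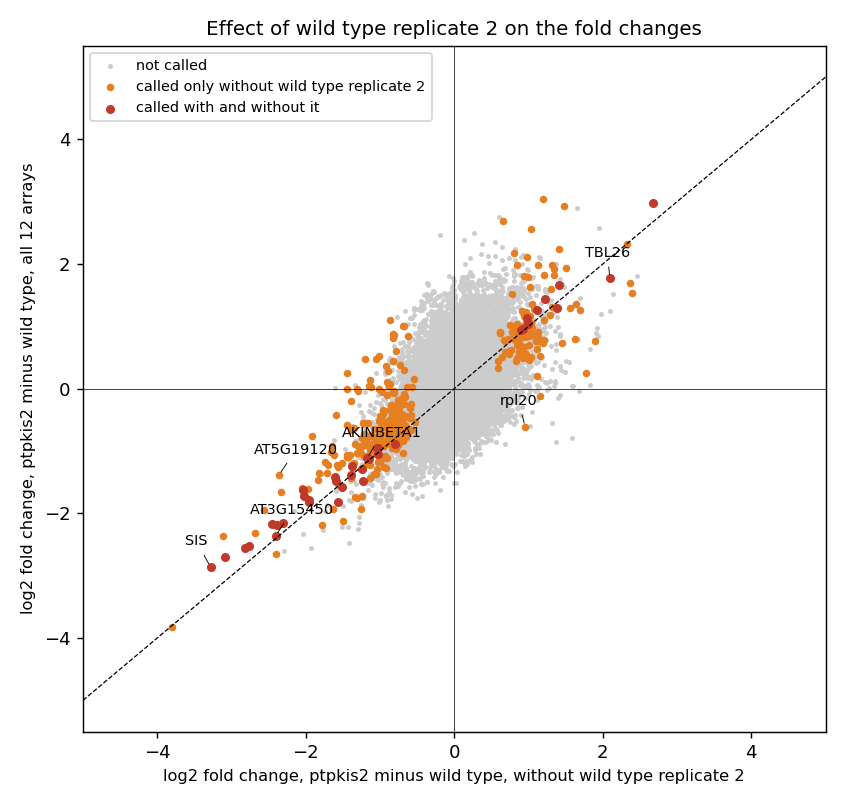
Log2 fold change of ptpkis2 minus wild type for each probe set without wild type replicate 2 (x axis) and with all 12 arrays (y axis); the dashed line marks equal values and colours mark the calls at adjusted p below 0.05. The 36 probe sets called both ways lie near the line, and rpl20 lies on opposite sides of 0 (0.95 on the x axis, -0.61 on the y axis).

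Among the falls were 5 transcripts of a list of genes that sugars repress or starvation raises. Of these, AT3G15450 and AT4G27450 encode related proteins first annotated as aluminium-induced, and AT2G20670 encodes a protein of the DUF506 family. AT3G15450 had signals of 146, 139 and 120 on the ptpkis2 arrays, 441, 532 and 466 in sex4-3, 3178, 3199 and 2730 in sex1-3, and 869, 648 and 582 in wild type. The ptpkis2 arrays were the lowest of all, and sex1-3 lay on the other side of wild type. The transcript was 5.13-fold lower in ptpkis2 than in wild type (log2 -2.36 ± 0.18 SE, n = 3 per genotype, limma adjusted p = 0.000365) and 5.30-fold lower without wild type replicate 2 (-2.40 ± 0.17, adjusted p = 4.26e-06). Against sex4-3 it was 3.56-fold lower (adjusted p = 0.00277 with 12 arrays), and against sex1-3 22.5-fold lower (adjusted p = 2.65e-07).

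AT2G20670 showed the same order of genotypes. Its signals were 90.8, 70.4 and 86.9 in ptpkis2, 338, 318 and 269 in sex4-3, 812, 1066 and 737 in sex1-3, and 498, 285 and 371 in wild type, so ptpkis2 overlapped no other genotype. It fell by 2.19 ± 0.23 on the log2 scale with 12 arrays (limma adjusted p = 0.00242) and by 2.39 ± 0.19 without wild type replicate 2 (adjusted p = 1.32e-05). AT4G27450 had 102, 107 and 109 in ptpkis2, 264, 454 and 523 in sex4-3, 1324, 1325 and 1299 in sex1-3, and 429, 325 and 782 in wild type. The 3 ptpkis2 values lay close together, while the wild type values were spread more than 2-fold. The transcript was 4.51-fold lower in ptpkis2 with 12 arrays (adjusted p = 0.0186) and 5.47-fold lower without wild type replicate 2 (adjusted p = 0.000145).

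The gene for a serine-rich protein that salt induces, SIS (AT5G02020), had the largest fall of a called named gene in both fits. It measured 13.9, 9.02 and 19.9 in ptpkis2, 61.9, 61.4 and 75.2 in sex4-3, 375, 347 and 227 in sex1-3, and 81.7, 55.2 and 212 in wild type. All ptpkis2 arrays were below all others, and the wild type arrays were spread nearly 4-fold. SIS fell by 2.86 ± 0.45 on the log2 scale with 12 arrays (limma adjusted p = 0.0358) and by 3.28 ± 0.38 without wild type replicate 2 (adjusted p = 0.00024), a 9.72-fold difference. Its ptpkis2 signals lay below the median signal of those arrays, so the size of the fall is uncertain.

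AKINBETA1 (AT5G21170), the beta 1 regulatory subunit of SnRK1, changed less than these genes and scattered little within genotypes. Its signals were 199, 207 and 215 in ptpkis2, 432, 462 and 477 in sex4-3, 1272, 1196 and 1181 in sex1-3, and 475, 418 and 459 in wild type. Here sex4-3 and wild type overlapped, ptpkis2 lay below both and sex1-3 above both. Against wild type AKINBETA1 was 2.17-fold lower with 12 arrays (log2 -1.12 ± 0.14, limma adjusted p = 0.00637) and 2.25-fold lower without replicate 2 (adjusted p = 0.000145). Against sex4-3 it was 2.21-fold lower (adjusted p = 0.00816 with 12 arrays). Of the other SnRK1 subunits named on the array, the beta subunit gene AT4G16360 had a value of 0.40 ± 0.17 (adjusted p = 0.276) and AT2G28060 one of -0.14 ± 0.16 (adjusted p = 0.727) without wild type replicate 2. With 12 arrays they were at 0.81 and -0.30, and neither passed in either fit.

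**Figure D2:**
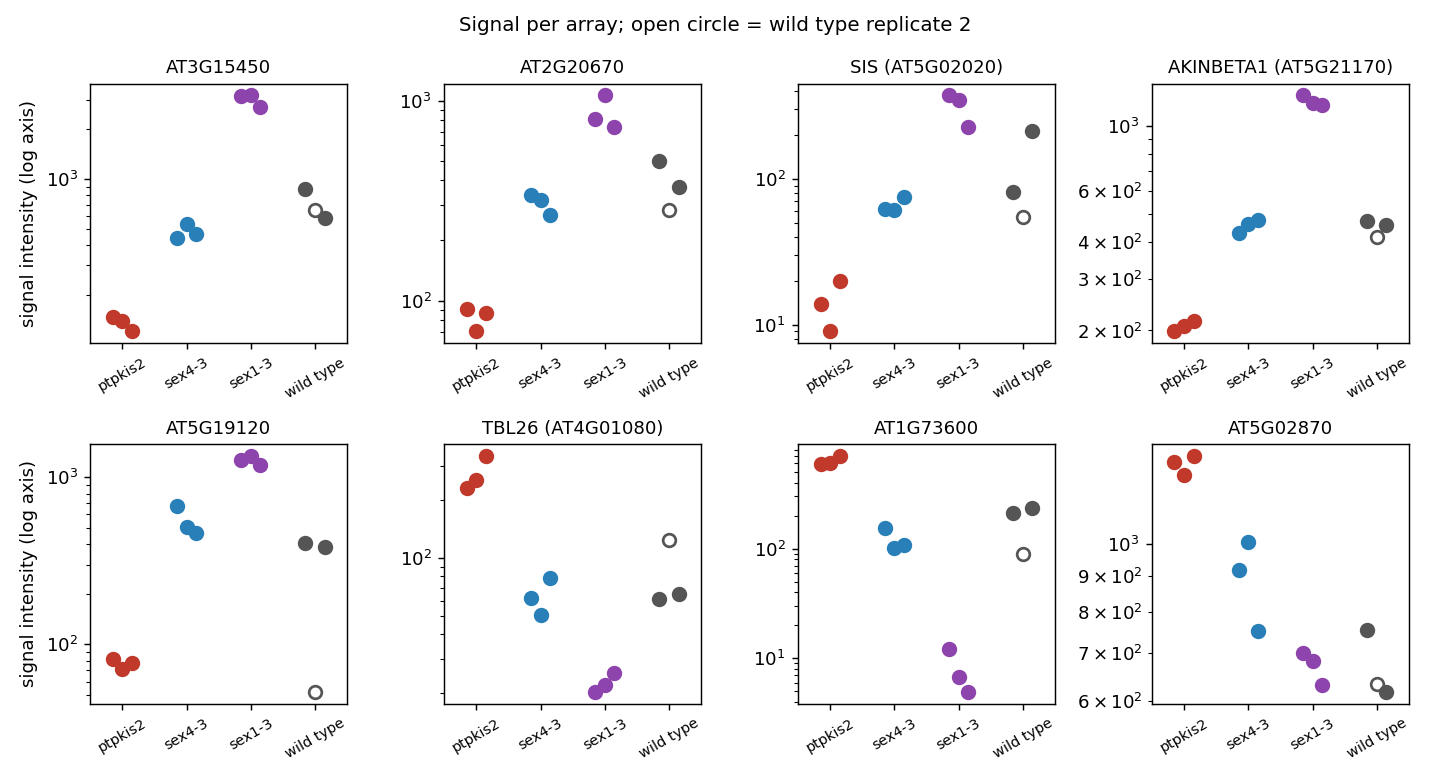
Signal intensity on each array (log axis) of 8 named genes, with ptpkis2 leftmost and wild type rightmost; each point is 1 array and the open circle is wild type replicate 2. For AT3G15450, AT2G20670, SIS and AKINBETA1 the ptpkis2 arrays are the lowest and the sex1-3 arrays the highest, and for TBL26, AT1G73600 and AT5G02870 the ptpkis2 arrays are the highest.

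As a list, 23 loci repressed by sugar or raised in starvation had 6 named members on the array, and 5 of them fell in ptpkis2 in both fits, where 0.191% of all probe sets fell with 12 arrays and 1.87% without wild type replicate 2. The list had a median of -2.18 with 12 arrays and -2.40 without wild type replicate 2. The 5 genes are those described above, which were entered in the list with earlier results of these data known, so their count is no independent evidence of a direction. The sixth, PPDK, pyruvate orthophosphate dikinase, had signals of 342, 368 and 314 in ptpkis2 and 229, 191 and 469 in wild type, which overlapped (0.05 ± 0.27, adjusted p = 0.958 without wild type replicate 2, and 0.32 with 12 arrays).

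A second set of falls depended on wild type replicate 2. AT5G19120, of the aspartyl protease family, had 81.7, 71.4 and 76.9 in ptpkis2, 669, 508 and 461 in sex4-3, 1272, 1339 and 1184 in sex1-3, and 404, 52.1 and 382 in wild type. The low wild type value is replicate 2, and it lies below ptpkis2. With that array the value was -1.39 ± 0.59 (limma adjusted p = 0.379), and without it the fall was 5.13-fold (-2.36 ± 0.16, adjusted p = 3.31e-06). Against sex4-3, a difference that holds no wild type array, AT5G19120 was 7.04-fold lower in ptpkis2 (adjusted p = 0.199 with 12 arrays and 2.07e-07 without wild type replicate 2, which changed the estimate of spread only).

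AT1G23390, a kelch-repeat F-box protein, was called both ways. It had 319, 306 and 355 in ptpkis2 against 1357, 561 and 1318 in wild type, with no overlap, and fell by 1.62 ± 0.28 with 12 arrays (limma adjusted p = 0.0467) and by 2.04 ± 0.13 without wild type replicate 2 (adjusted p = 3.31e-06). The F-box gene AT3G07870 had 123, 158 and 134 in ptpkis2 and 432, 145 and 487 in wild type, where replicate 2 lay among the ptpkis2 values. It fell by 1.74 ± 0.15 without that array (adjusted p = 1.8e-05) and had -1.18 ± 0.36 with it (adjusted p = 0.242). AT2G29670 fell by 1.66, AT1G54740 by 1.62, AT3G15630 by 1.83 and AT3G49790 by 1.57 without wild type replicate 2, and with 12 arrays they were at -1.02, -1.06, -1.36 and -1.23 in that order, none of which passed.

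The other 5 named genes called lower with all 12 arrays fell by 1.12 to 1.81. AT1G78450, of the SOUL heme-binding family, measured 22.7, 24.9 and 27.7 in ptpkis2 against 86.9, 124 and 63.4 in wild type (-1.81 ± 0.26, limma adjusted p = 0.0186, and -1.57 without replicate 2). The RING-type gene AT1G24440 had 40.1, 40.4 and 28.3 in ptpkis2 against 89.9, 84.2 and 130 in wild type (-1.48 ± 0.26, adjusted p = 0.0467, and -1.60 without replicate 2). Neither gene's groups overlapped. AT3G15770 fell by 1.29 ± 0.17 (adjusted p = 0.0108), AT5G59960 by 1.24 ± 0.20 (adjusted p = 0.0393) and AT4G17245 by 1.12 ± 0.18 (adjusted p = 0.0375). Leaving out wild type replicate 2, these genes were called at -1.24, -1.37 and -1.14. AT4G37180, a MYB-related gene, had 1.87, 1.35 and 8.57 in ptpkis2 and 13.6, 8.31 and 23.4 in wild type, signals so near the bottom of the arrays that the size of its fall without wild type replicate 2 (2.68 ± 0.66, adjusted p = 0.0463) is uncertain, and with 12 arrays it did not pass (-2.31 ± 0.68, adjusted p = 0.237). AT5G51390 had 10.9, 8.94 and 9.27 in ptpkis2 and 32.6, 78 and 33.9 in wild type, and passed without replicate 2 (-1.78 ± 0.34, adjusted p = 0.0116) but not with it (-2.19 ± 0.41, adjusted p = 0.0571). Its ptpkis2 signals were also low, so the size of its fall is uncertain.

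**Figure D3:**
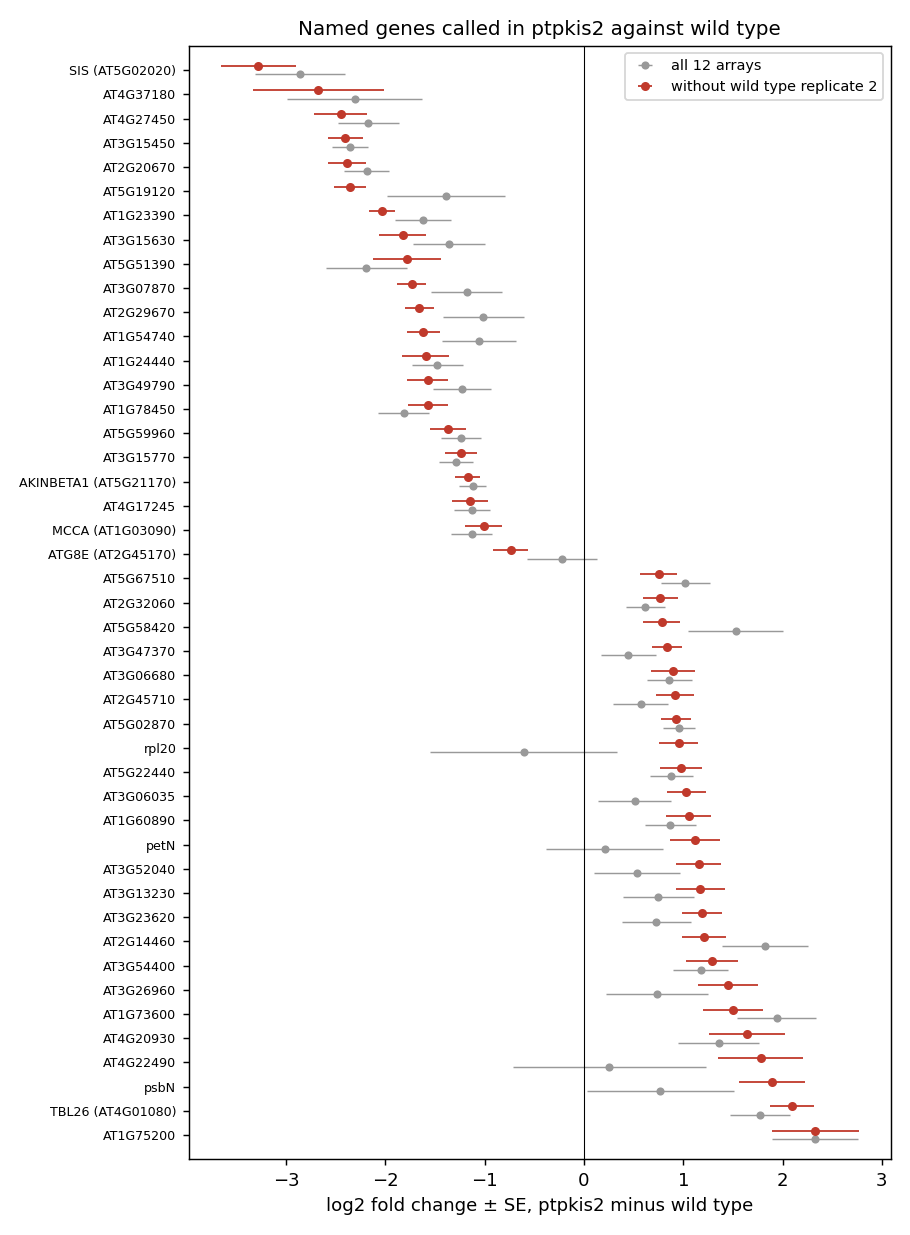
Log2 fold change ± SE of ptpkis2 minus wild type for the 45 named genes, without wild type replicate 2 (red) and with all 12 arrays (grey). SIS has the lowest value (-3.28 without wild type replicate 2) and AT1G75200 the highest (2.33), and the grey bars are longest where wild type replicate 2 lay far from the other wild type arrays, as for rpl20 and AT4G22490.

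No listed gene of starch breakdown or synthesis with a named, tested probe set was called. The other listed loci were not examined, and some called probe sets had no gene name. Of 25 starch breakdown loci 4 had a named probe set. PWD, which phosphorylates glucans after SEX1, had 219, 185 and 217 in ptpkis2 and 182, 219 and 248 in wild type, with overlapping groups (-0.04 ± 0.21, limma adjusted p = 0.958 without wild type replicate 2, -0.05 with 12 arrays). The disproportionating enzyme DPE1 was at -0.06 ± 0.41 and the alpha-amylase AMY1 at -0.02 ± 0.58 without that array, and at -0.80 and -0.74 with it, where replicate 2 had the highest signal of either gene on any array. AT3G55760, known as LESV, which shapes starch granules, had a value of -1.38 ± 0.62 (adjusted p = 0.297) on signals of 10.3, 4.29 and 17.7 in ptpkis2 against 28.5, 8.77 and 20.3 in wild type, and was below the filter with 12 arrays. Starch synthesis had 3 tested members, the ADP-glucose pyrophosphorylase subunit APL3 at 0.13 ± 0.35, the branching enzyme SBE2.2 at -0.40 ± 0.23 and AT5G39790 at 0.52 ± 0.53, and with 12 arrays they were at -0.18, -0.57 and -0.29. None passed in either fit. Without wild type replicate 2, 1.87% of all probe sets fell and 0.835% rose, so lists this small may hold 0 calls at those shares. The standard errors leave room for changes well beyond the values themselves in DPE1, AMY1 and AT5G39790. QQS (AT3G30720), an orphan gene known to lower leaf starch, falls outside the rule for named genes and is given because of that role, after its values were seen. It had 74.9, 101 and 94.7 in ptpkis2, 129, 85.2 and 116 in sex4-3, 21.8, 28.6 and 22.3 in sex1-3, and 209, 108 and 219 in wild type. QQS fell by 1.26 ± 0.22 against wild type without replicate 2 (adjusted p = 0.00678) and had -0.93 ± 0.30 with all 12 arrays (adjusted p = 0.268).

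Transcripts for the use of amino acids and for autophagy moved in few members. MCCA (AT1G03090), which encodes part of the leucine-degrading enzyme methylcrotonyl-CoA carboxylase, had 49.6, 39.4 and 45.6 in ptpkis2, 72.2, 65.6 and 83 in sex4-3, 270, 337 and 262 in sex1-3, and 81.9, 116 and 98.8 in wild type. The ptpkis2 arrays were again the lowest and sex1-3 the highest. MCCA fell by 1.01 ± 0.19 without wild type replicate 2 (limma adjusted p = 0.00996), and with 12 arrays its value of -1.13 ± 0.21 missed the threshold (adjusted p = 0.0565). AT4G20930, the 3-hydroxyisobutyrate dehydrogenase of valine breakdown, rose instead, by an amount that its low wild type signals leave uncertain. Its signals were 23.2, 23.4 and 14.2 in ptpkis2, 20.1, 21.4 and 18.1 in sex4-3, 29.5, 31.6 and 30.3 in sex1-3, and 5.13, 11.5 and 7.84 in wild type, so that wild type was the genotype apart (1.64 ± 0.38, adjusted p = 0.035 without replicate 2, and 1.36 ± 0.41, adjusted p = 0.238 with 12 arrays). The remaining 9 of the 11 tested genes for branched-chain, lysine and methionine breakdown were not called, and the list median was 0.00 without wild type replicate 2 and 0.28 with 12 arrays.

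ATG8 proteins are conjugated to autophagosome membranes and recruit cargo. All 9 ATG8 genes were tested, and 7 had values below 0 without wild type replicate 2 (median -0.34), as did all 9 with 12 arrays (median -0.29). ATG8E alone was called, without wild type replicate 2, where 1.87% of all probe sets fell. It had 258, 327 and 281 in ptpkis2 against 447, 162 and 513 in wild type (-0.74 ± 0.18, limma adjusted p = 0.0396), and -0.22 ± 0.35 with all 12 arrays (adjusted p = 0.75). ATG8F had 1054, 1061 and 913 in ptpkis2 and 1240, 1519 and 1520 in wild type, without overlap, but did not pass (-0.45 ± 0.14, adjusted p = 0.118 without wild type replicate 2, and -0.50, adjusted p = 0.265 with 12 arrays). Without wild type replicates 2 and 3 the list median was -0.08, without replicates 1 and 2 it was -0.56 with 1 of 9 members above 0, and no member was called either way.

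Among the rises, TBL26 (AT4G01080) was called in both fits. It belongs to the trichome birefringence-like family, whose characterised members add acetyl groups to wall polysaccharides. Its signals were 231, 253 and 336 in ptpkis2, 61.6, 50.5 and 78.3 in sex4-3, 20.2, 21.8 and 25.4 in sex1-3, and 61, 124 and 65.2 in wild type. All ptpkis2 arrays exceeded all others, and replicate 2 was the highest of wild type. TBL26 was 3.41-fold higher with 12 arrays (1.77 ± 0.30, limma adjusted p = 0.0424) and 4.28-fold higher without wild type replicate 2 (2.10 ± 0.22, adjusted p = 0.000145), and 4.32-fold higher than in sex4-3 (adjusted p = 0.0267 with 12 arrays). None of the other 13 tested members of the family was called in either fit.

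AT1G73600, a phosphoethanolamine N-methyltransferase of phosphocholine synthesis, spanned a wide range between genotypes. It had 590, 609 and 699 in ptpkis2, 156, 101 and 108 in sex4-3, 12.3, 6.82 and 4.95 in sex1-3, and 210, 89.6 and 236 in wild type. In this gene ptpkis2 was the highest and sex1-3 the lowest. It rose 2.84-fold against wild type without replicate 2 (1.50 ± 0.30, limma adjusted p = 0.0158) and stood 3.84-fold higher with 12 arrays, where it missed the threshold (adjusted p = 0.0786). Against sex4-3 the ratio was 5.29 (adjusted p = 0.055 with 12 arrays, 0.000281 without wild type replicate 2). AT3G54400, of the aspartyl protease family, had 128, 156 and 101 in ptpkis2, 93.2, 67.8 and 63.3 in sex4-3, 20.6, 12.7 and 17.4 in sex1-3, and 53.7, 64.9 and 50 in wild type (1.29 ± 0.26, adjusted p = 0.0175 without replicate 2, and 1.18 ± 0.28, adjusted p = 0.125 with it). AT3G26960, of the pollen Ole e 1 family, had 153, 119 and 110 in ptpkis2 and 31.5, 203 and 67.4 in wild type, where replicate 2 exceeded ptpkis2. It rose by 1.45 ± 0.30 without that array (adjusted p = 0.019) and had 0.74 ± 0.52 with all 12 arrays (adjusted p = 0.497).

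Some of the largest rises were in genes for which ptpkis2 overlapped another mutant. AT1G75200 had 27.8, 40.7 and 30.8 in ptpkis2, 9.72, 10.5 and 22.9 in sex4-3, 39.4, 31 and 32.2 in sex1-3, and 4.98, 6.59 and 8.46 in wild type. The ptpkis2 arrays overlapped sex1-3, and sex4-3 lay between them and wild type. Against wild type the gene rose by 2.33 ± 0.43 without replicate 2 (limma adjusted p = 0.0102) and had 2.32 ± 0.43 with 12 arrays (adjusted p = 0.0572). Its wild type signals were low, so the size of the rise is uncertain. Without wild type replicate 2 the gene was at -0.06 ± 0.39 against sex1-3 (adjusted p = 0.928) and stood 2.46-fold higher than in sex4-3, which did not pass the threshold (adjusted p = 0.131). AT4G22490 had 27.5, 22.5 and 30.6 in ptpkis2, 33.6, 14.7 and 16.6 in sex4-3, 12.7, 17.9 and 18.5 in sex1-3, and 7.97, 184 and 7.57 in wild type. Replicate 2 was far above every other array, and the gene's rise of 1.78 ± 0.43 without replicate 2 (adjusted p = 0.0427) contrasts with a value of 0.26 ± 0.97 with that array. The remaining wild type signals were low, so the size of the rise is uncertain. Other named rises without wild type replicate 2 were AT2G14460 (1.21), AT3G52040 (1.15), AT1G60890, of the phosphatidylinositol phosphate kinase family (1.05), and AT3G06035, a predicted GPI-anchored glycoprotein (1.03). With 12 arrays they were at 1.82, 0.53, 0.87 and 0.51, and none passed.

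Transcripts of cytosolic ribosomal proteins, which carry out protein synthesis, were mostly a little higher in ptpkis2, by an amount that depended on which wild type arrays were kept. Of 218 loci for cytosolic ribosomal proteins, written from memory after the calls had been seen, 127 were named and 115 tested. Without wild type replicate 2, 108 of the 115 lay above 0 (53.4% of all probe sets did), their median was 0.32 (1.25-fold), and 9 rose (7.83%, where 0.835% of all probe sets rose) and 0 fell. With 12 arrays 104 were above 0, the median was 0.43 and 1 rose. The members were brighter than most probe sets, with a median mean log2 signal of 9.03 against 6.27 over all tested. The shares over all probe sets were not matched for signal level. AT5G02870, ribosomal protein L4, is the member called both ways. It had 1306, 1251 and 1330 in ptpkis2, 917, 1004 and 753 in sex4-3, 701, 683 and 632 in sex1-3, and 755, 634 and 617 in wild type. All ptpkis2 arrays were above all others (0.96 ± 0.16, limma adjusted p = 0.0393 with 12 arrays, and 0.92 ± 0.15, adjusted p = 0.0044 without replicate 2).

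The other 8 rose by 0.67 to 0.98 without wild type replicate 2 and were not called with 12 arrays, where they ranged between 0.45 and 1.53. In the small subunit these were AT3G47370 (S20, 0.84 ± 0.15), AT2G45710 (S27, 0.91 ± 0.19), AT2G32060 (S12, 0.77 ± 0.17) and AT5G58420 (S4, 0.78 ± 0.19), and in the large subunit AT5G22440 (L10a, 0.98 ± 0.21), AT3G06680 and AT3G06700 (both L29, 0.90 ± 0.22 and 0.67 ± 0.15) and AT5G67510 (L26, 0.75 ± 0.19). AT3G47370 illustrates the levels, with 580, 561 and 602 in ptpkis2, 511, 506 and 555 in sex4-3, 330, 351 and 410 in sex1-3, and 368, 731 and 288 in wild type. Replicate 2 exceeded ptpkis2 for this gene. Many of these proteins are encoded by near-identical gene copies, which an array probe set may not separate.

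Array by array, the median of the 115 members, taken relative to the mean of wild type replicates 1 and 3, was 0.24, 0.34 and 0.38 in ptpkis2, 0.11, 0.35 and 0.18 in sex4-3, -0.33, -0.12 and -0.25 in sex1-3, and 0.20, -0.28 and -0.20 in wild type. The ptpkis2 arrays were above all wild type arrays but overlapped sex4-3, and wild type replicate 1 came close to them. Without wild type replicate 2 the members had a median of 0.12 against sex4-3 and 0 were called, where 1.66% of all probe sets were called. Against sex1-3 in the same fit their median was 0.61, with 70 higher and 0 lower. There 29.1% of all probe sets were called in either direction. The median depended on the wild type array left out. Without replicates 2 and 3 the median against wild type was 0.10, with 76 of the 115 members above 0. Without replicates 1 and 2 it was 0.51, with 114 of the 115 above 0. Under median centring without wild type replicate 2, the median was 0.24 and 4 rose, where 83 of all 13647 probe sets rose. A list of 7 loci for the nucleolus and ribosome assembly had 1 tested member, AT3G05060, which was not called (0.74 ± 0.25, limma adjusted p = 0.148 without wild type replicate 2, and 1.36 ± 0.46, adjusted p = 0.293 with 12 arrays).

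Among the 15 largest rises were also AT3G23620, of the Brix domain family, and AT3G13230, a KH-domain protein. They rose by 1.19 ± 0.20 (limma adjusted p = 0.00616) and 1.17 ± 0.25 (adjusted p = 0.0211, and 0.75 with 12 arrays) without wild type replicate 2. AT3G23620 had 84.7, 104 and 89.9 in ptpkis2, 57.6, 54.5 and 57 in sex4-3, 35.5, 41.5 and 33.1 in sex1-3, and 46.6, 106 and 35.3 in wild type, of which 106 is replicate 2, and it had 0.73 ± 0.35 with all 12 arrays (adjusted p = 0.407).

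**Figure D4:**
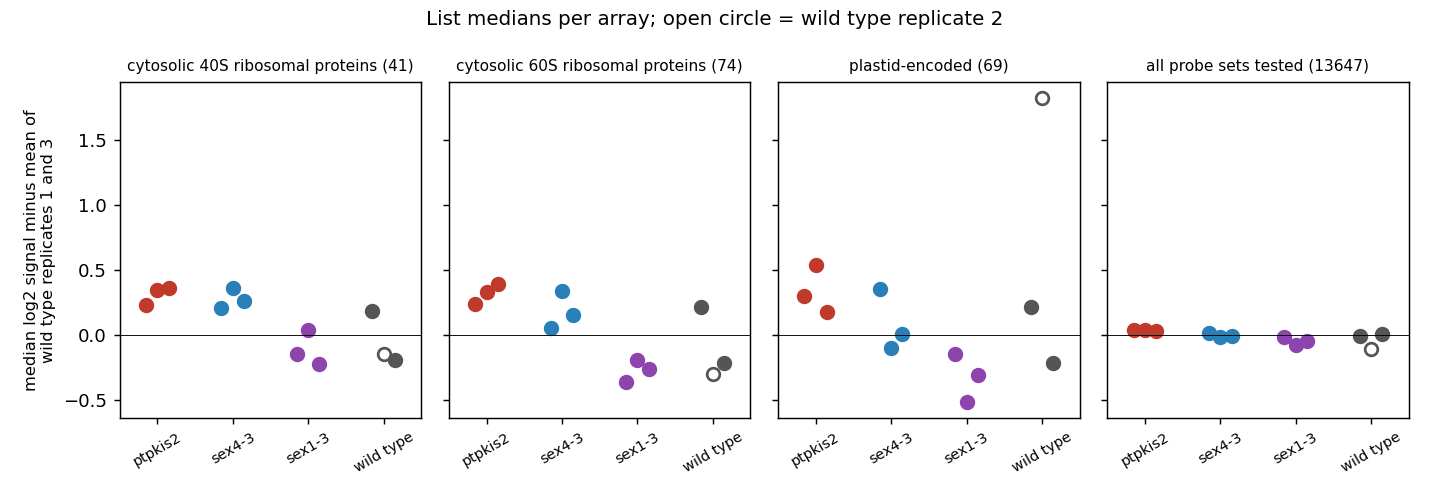
Median log2 signal of the members of 3 lists and of all tested probe sets on each array, relative to the mean of wild type replicates 1 and 3, with ptpkis2 leftmost and wild type rightmost; each point is 1 array and the open circle is wild type replicate 2. Chloroplast-encoded transcripts lie 1.83 above that mean on wild type replicate 2, and ribosomal protein medians overlap between ptpkis2 and sex4-3.

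Chloroplast-encoded transcripts turned with wild type replicate 2. The chloroplast genome encodes subunits of the photosystems, of the cytochrome complex, of the plastid ribosome and of rubisco. Without that array 64 of 69 members lay above 0 (53.4% of all probe sets did) and their median was 0.30. Of the 69, 3 rose, where 0.835% of all probe sets rose. These were psbN (1.90 ± 0.33, limma adjusted p = 0.00747), petN of the cytochrome b6f complex (1.12 ± 0.25, adjusted p = 0.0282) and rpl20 of the plastid ribosome (0.95 ± 0.20, adjusted p = 0.019). With all 12 arrays 28 of 69 were above 0, the median was -0.14, and 0 were called, with psbN at 0.77, petN at 0.21 and rpl20 at -0.61. The last had 394, 555 and 340 in ptpkis2, 265, 291 and 239 in sex4-3, 117, 109 and 138 in sex1-3, and 229, 5600 and 206 in wild type. In 51 of the 69 members wild type replicate 2 was above every ptpkis2 array and both other wild type arrays. The same count over all probe sets is not given, so whether this was particular to chloroplast transcripts is not shown. Without wild type replicates 2 and 3 the median was 0.10, with 50 of the 69 members above 0. Leaving out replicates 1 and 2 gave 0.50, with 65 of the 69 above 0. Array by array, the median relative to the mean of wild type replicates 1 and 3 was 0.30, 0.54 and 0.18 in ptpkis2. It was 0.36, -0.10 and 0.01 in sex4-3, -0.15, -0.52 and -0.31 in sex1-3, and 0.21, 1.83 and -0.21 in wild type. The ptpkis2 arrays overlapped both sex4-3 and wild type replicate 1. Whether RNA preparation or labelling moved these transcripts was not tested.

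**Figure D5:**
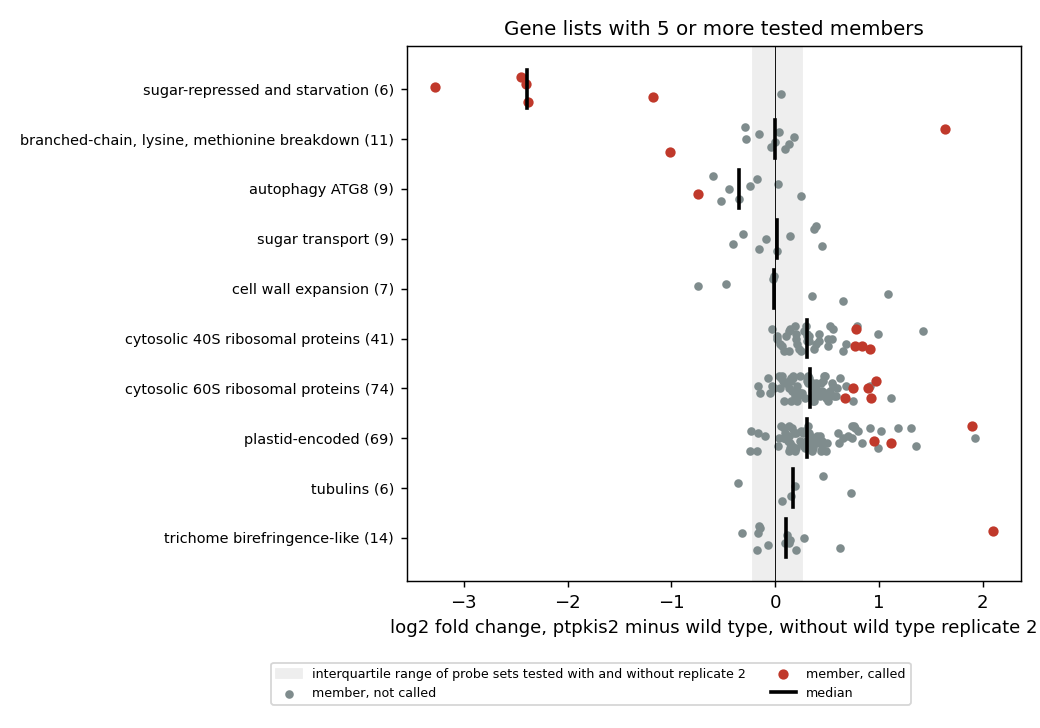
Log2 fold change of ptpkis2 minus wild type without wild type replicate 2 for each tested member of the lists with 5 or more such members (number in brackets); red points are called, black bars are medians and the grey band holds the interquartile range of the probe sets tested both with and without that array. The sugar-repressed list has its median at -2.40, the ribosomal and plastid-encoded lists have theirs near 0.3, the ATG8 list has its at -0.34, and the other medians lie within the band.

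Other groups showed no call. Over all probe sets 0.191% fell and 0.0733% rose with 12 arrays, and 1.87% and 0.835% without wild type replicate 2. Lists this small may hold 0 calls at those shares. Of 9 tested sugar transporters, 7 genes for wall expansion, 6 tubulins, 3 light-harvesting proteins of photosystem II and 3 Calvin cycle enzymes, 0 passed in either fit. Of the tubulins, TUB7 came nearest, with 104, 99 and 94.3 in ptpkis2 against 66.4, 86.7 and 53.6 in wild type (0.73 ± 0.18, limma adjusted p = 0.0502 without replicate 2, just short of the threshold, and 0.55 with 12 arrays). The lists for trehalose 6-phosphate metabolism, nitrogen assimilation and heat shock had 0 members with a named probe set and were not analysed here. The clock, sucrose, flavonoid, cold, defence and glucosinolate lists had 1 to 4 tested members each with 0 called.

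Among 2237 pairs of adjacent genes with both members tested, 4 had both called without wild type replicate 2, where 2.52% of single named probe sets were called. In each of the 4 pairs both genes moved the same way. TBL26 is adjacent to GT72B1 (AT4G01070), a glucosyltransferase, which had 362, 441 and 493 in ptpkis2 against 204, 140 and 239 in wild type (0.96 ± 0.17, limma adjusted p = 0.00841 without replicate 2, and 1.18 ± 0.22, adjusted p = 0.0571 with it). AT1G78450 is adjacent to AT1G78460, of the same SOUL family (-0.99), AT3G15770 to AT3G15760 (-0.93), and AT1G75800 (-1.01) to AT1G75810 (-0.83). With 12 arrays AT1G75810 was at 0.44, on the other side of 0, and AT1G78460 at -0.44, and neither passed.

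The ptpkis2 arrays were also set against the other starch mutants, in differences that share the ptpkis2 arrays with the comparison to wild type. Between ptpkis2 and sex4-3, 9 probe sets were called with 12 arrays (0.0659%) and 226 without wild type replicate 2 (1.66%). Between ptpkis2 and sex1-3 the counts were 1291 (9.46%) and 3970 (29.1%). Of the 36 probe sets called against wild type, 7 also passed against sex4-3 and 36 against sex1-3. Of the 369 called without wild type replicate 2, 142 passed against sex4-3 and 333 against sex1-3. Since the same ptpkis2 arrays enter both differences, these overlaps are a description only. The named genes called against both wild type and sex4-3 with 12 arrays were AT3G15450, AT2G20670, AKINBETA1 and TBL26.

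Large differences also belonged to probe sets with no gene name here. The lowest fitted values among those called were in 248347_at and 259188_at. Both rest on ptpkis2 signals near the bottom of the arrays, so the sizes of these falls and their order are uncertain. Probe set 248347_at had 0.85, 1.01 and 2.77 in ptpkis2, 26.2, 28.3 and 25.7 in sex4-3, 36, 46.6 and 30 in sex1-3, and 38.4, 3.9 and 18.9 in wild type (-4.34 ± 0.57, limma adjusted p = 0.000888 without wild type replicate 2). It was below the filter with 12 arrays. Probe set 259188_at had 10.7, 8.38 and 0.73 in ptpkis2, 44.2, 52.9 and 54.7 in sex4-3, 37.2, 51.2 and 45.2 in sex1-3, and 56.9, 58.3 and 54.8 in wild type. Outside ptpkis2 its 9 values were close together, and all 3 ptpkis2 values were far below them (-3.80 ± 0.79, adjusted p = 0.0204 without wild type replicate 2, and -3.82 ± 0.78, adjusted p = 0.0786 with it). The largest rises were in 248676_at and 246884_at. Probe set 248676_at had 142, 293 and 299 in ptpkis2, 147, 143 and 178 in sex4-3, 15.9, 6.62 and 19.3 in sex1-3, and 41.4, 19 and 31.7 in wild type, and was called both ways (2.99 ± 0.44, adjusted p = 0.0244 with 12 arrays, and 2.68 without wild type replicate 2). Probe set 246884_at had 31, 53.3 and 38.3 in ptpkis2 against 10.0, 45.3 and 5.74 in wild type (2.39 ± 0.50, adjusted p = 0.0206 without replicate 2, and 1.53 ± 0.68, adjusted p = 0.393 with it).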

How the data were processed

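Total leaf RNA was hybridised to 12 ATH1 arrays of 4 genotypes. Signals came from GCOS with the MAS5 algorithm, per the submitters' processing notes, without version numbers in the sources used here. In the deposited table each probe set has a linear intensity on every array. Trimmed mean intensities of 100.01 on nearly every array show a common scale, whose target value no label states. The number of arrays limits the precision.

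Values were taken to log2 without a pseudocount or further normalization. Of 22810 probe sets, 64 controls and the 40% of the rest with the lowest mean log2 signal were left out, leaving 13647. The model used limma 3.58.1 under R 4.3.3 (lmFit, then trended eBayes) on the 12 arrays together, with 3 contrasts, two-sided tests and Benjamini-Hochberg adjustment over all probe sets. The whole fit, filter included, was repeated without wild type replicate 2. The fit on 11 arrays was tested on simulated data with known changes, with independent noise and no other differences between genotypes. Names were taken from GEO's platform annotation, updated through a RefSeq table of TAIR10.1: 13436 probe sets had 1 gene, 503 several, and 7366 of those tested were named.

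Named genes were those called with 12 arrays, the 15 largest rises and 15 largest falls with separate groups without wild type replicate 2, up to 4 called members of each list, and 2 unnamed probe sets each way. Members and lists were chosen with earlier results of these data known, and the ribosomal loci were written from memory after the calls had been seen. No pair of arrays held identical values. Deviations from the genotype mean correlated at -0.01, -0.01 and 0.04 between same-numbered ptpkis2 and wild type arrays. The wild type mean included replicate 2, which stood apart, so these values cannot show whether replicate numbers pair the arrays. Alternatives were other normalizations, filters, floors, variance settings, array weights, a replicate block and leaving out each array.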

Additional observations from a re-analysis of the deposited data

Results flagged for a closer look

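Wild type replicate 2 carried a signal in probe sets that no comparison used. The 18 spike-in controls were brighter there by a median factor of 23.3, where the remaining arrays lay between 0.55 and 1.35. These controls report material added during preparation and hybridisation and not leaf RNA. The chloroplast-encoded share of signal, 8.83% on that array and at most 4.09% elsewhere, moved with it, and their part in the fold changes was not tested.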

How the results depend on the processing

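With 12 arrays the count of 36 probe sets was 32 under quantile normalization, 37 with a floor, 38 with a pseudocount and 31 with robust eBayes, but 1 under median centring, 18 with no filter, 18 with the lowest 20% left out, 59 with the lowest 60% left out, 14 without a trend and 799 with array weights (47.3% higher, against 27.8%). Median centring moved the median of all probe sets to 0.36, and quantile normalization moved it to 0.16. Fitted on the ptpkis2 and wild type arrays alone, limma called 0 (712 at an unadjusted p below 0.05, against 1710 with all arrays). Leaving out 1 array gave 6 to 369: without wild type replicate 1, 2 or 3 the counts were 35, 369 and 24, and without ptpkis2 replicate 1, 2 or 3 they were 7, 6 and 8. The causes were not tested. With the replicate number as a block limma called 12, and 343 without wild type replicate 2. Of the 36, 36 were called again with array weights, 36 without wild type replicate 2, 23 under quantile normalization, 13 without a trend, 12 with the block, 1 under median centring and 0 of the 35 tested on the 2 genotypes alone. Without wild type replicate 1 or 3 they were 21 and 16, and without ptpkis2 replicate 1, 2 or 3 they were 7, 6 and 7.

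Without wild type replicate 2 the count of 369 (30.9% higher) was 421 under quantile normalization, 456 under median centring (83 higher and 373 lower, 18.2% higher), 381 with a floor, 397 on the 2 genotypes alone and 185 without a trend. Leaving out a further array gave 151 (wild type replicate 3, 49.0% higher) to 318 (wild type replicate 1), with 196, 188 and 179 without ptpkis2 replicate 1, 2 or 3. Restoring all 12 arrays gave 36. Leaving out wild type replicate 2 took the overlap with sex4-3 to 142 (7 with 12 arrays) and with sex1-3 to 333 (36 with 12 arrays). Of 234 values of the 13 genes named with 12 arrays, 98 lost the call and 0 reversed. Of 538 values of the 45 genes without wild type replicate 2, 135 lost the call and only rpl20 reversed, to -0.61 with all 12 arrays. Of 180 list medians, 7 moved beyond the spread between replicates.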

Other observations

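Some called genes outside the rule for named genes were noticed after their values had been seen. AT3G09440, a cytosolic HSC70 chaperone, had 689, 495 and 520 in ptpkis2, 223, 343 and 331 in sex4-3, 153, 121 and 178 in sex1-3, and 252, 209 and 326 in wild type, with ptpkis2 above all others (0.97 ± 0.23, limma adjusted p = 0.035 without wild type replicate 2, and 1.12 ± 0.24, adjusted p = 0.0934 with 12 arrays). APS3, an ATP sulfurylase of sulfate assimilation, had 182, 173 and 211 in ptpkis2 against 78.6, 178 and 111 in wild type, where replicate 2 reached the ptpkis2 level (1.01 ± 0.20, adjusted p = 0.0155 without it, 0.70 ± 0.27, adjusted p = 0.358 with it). AT1G04770, related to the sulfur deficiency-induced protein SDI1, had 237, 319 and 315 in ptpkis2, 326, 263 and 222 in sex4-3, 91.2, 76.7 and 66.1 in sex1-3, and 135, 138 and 152 in wild type, so ptpkis2 and sex4-3 overlapped above the other genotypes (1.01 ± 0.20, adjusted p = 0.0166 without wild type replicate 2, and 1.03 ± 0.21, adjusted p = 0.0725 with it). GME (AT5G28840), GDP-mannose 3,5-epimerase of ascorbate synthesis, had 1010, 1147 and 1066 in ptpkis2, 1852, 1620 and 1567 in sex4-3, 2312, 2781 and 2170 in sex1-3, and 1963, 631 and 1649 in wild type. It fell by 0.75 ± 0.15 without wild type replicate 2 (adjusted p = 0.0167) and was at -0.24 ± 0.34 with it.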
